A study of Mus musculus with 6 samples.

Results

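The collagen genes were every gene whose symbol consists of Col, a type number, a and a chain number, which gave 44 of the 29721 genes counted in 6 mouse pancreas libraries. By class, 11 of them encode fibrillar collagens, 6 the basement membrane collagen type IV, 6 the beaded filament collagen type VI and 9 the FACIT collagens. The remaining 12 encode multiplexins, short-chain network collagens, transmembrane collagens, the anchoring fibril collagen and 2 further chains. Bulk RNA-seq of poly(A) RNA was performed on pancreas from mice aged 3 months. All 6 mice carried the Ela-myc transgene, in which the elastase promoter drives Myc in the acinar cells that make digestive enzymes, so no group was free of the transgene. One group of 3 mice was wild type for Parp2 (WT 1 to 3) and the other group of 3 mice was PARP2 KO (PARP2 KO 1 to 3), each library from a different animal. PARP2 is a nuclear enzyme that attaches poly(ADP-ribose) chains to proteins at DNA breaks, and the series asks what its loss does in pancreas of this tumour-prone line. The labels give the tissue as pancreas while the extraction protocol speaks of tumour samples. They do not give the deleted part of Parp2, the strain or the sex.

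Collagens are extracellular matrix proteins built from chains that repeat glycine followed by a pair of further residues, which lets chains wind into a triple helix. Fibrillar collagens are secreted as procollagens, trimmed at both ends and packed into the fibrils that give interstitial tissue its tensile strength. Type IV chains instead form the sheet-like network of basement membranes under acini, ducts and vessels, type VI forms beaded filaments around cells, and FACIT chains sit on the surface of fibrils. In pancreas, fibroblasts and stellate cells are the known main source of fibrillar collagen, and dense collagen is a known feature of pancreatic ductal tumours.

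The classes differed in gene structure. Of 649 coding exons in the fibrillar genes, 305 (47.0%) were exactly 54 bases long and 82.4% had a length divisible by 9, the number of bases that encode 1 glycine repeat. Exons of 54 bases made up 25.2% of coding exons in the FACIT genes, 7.83% in the beaded genes and 4.05% in the basement membrane genes. The short-chain network genes had 2 coding exons each and none of 54 bases. Several members lie beside each other: Col3a1 and Col5a2 are 24.6 kb apart on chromosome 1, and Col6a6, Col6a5 and Col6a4 follow one another on chromosome 9 with gaps of 27.9 and 28.8 kb.

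Promoter sequence is shown for the member with the highest level, Col3a1, for the members with the strongest decreases among the 38 tested, Col7a1 and Col8a1, and for Col13a1, whose call held under every alternative and every left-out library. Each line gives the 80 bases upstream of the RefSeq start on the gene's strand (GRCm38.p6), 5′ to 3′, with capitals marking GGGCGG or its complement. They are chr1:45311458-45311537 (plus strand), chr9:108953506-108953585 (plus), chr16:57754738-57754817 (minus) and chr10:61979109-61979188 (minus).
Col3a1: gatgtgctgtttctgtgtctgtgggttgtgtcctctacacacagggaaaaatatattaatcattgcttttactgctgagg
Col7a1: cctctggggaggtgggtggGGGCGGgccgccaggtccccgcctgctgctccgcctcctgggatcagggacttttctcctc
Col8a1: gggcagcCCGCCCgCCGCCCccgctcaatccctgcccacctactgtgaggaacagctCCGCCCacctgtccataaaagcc
Col13a1: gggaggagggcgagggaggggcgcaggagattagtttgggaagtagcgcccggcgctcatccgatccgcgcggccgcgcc
The 80 bases shown hold 1 match to GGGCGG for Col7a1 and 3 for Col8a1, and none for Col3a1 and Col13a1. A RefSeq promoter window was matched for 35 of the 44 members, and the 250 bases upstream of the start were searched on both strands for 3 motifs. GGGCGG was present in 21 of the 35 members (60%) and in 32.7% of all 32851 windows. Member shares are per gene, counted when any of its windows matched, and the shares of all windows are per window. Col6a2, Col9a1 and Col18a1 have more than 1 window, which favours the member shares. CCAAT was present in 13 members (37.1%, all windows 33.8%) and TATAAA in 5 (14.3%, all windows 12.4%). TATAAA was found for 2 of the 8 fibrillar genes with a window, Col3a1 at position -117 and Col11a2 at -143, and for none of the 5 basement membrane or 6 beaded genes. Matches are a description of these windows only.

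Col4a1 and Col4a2, the pair that showed the smallest change in chain ratio among those compared, are transcribed away from each other on chromosome 8 and share 22 bases at their 5′ ends. The line gives chr8:11312801-11312830 on the plus strand (GRCm38.p6), with the shared bases in capitals.
Col4a1-Col4a2 shared 5′ ends: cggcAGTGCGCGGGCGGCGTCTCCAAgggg

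The libraries held between 28105021 and 32055565 counts. Parp2, in counts scaled to library size (CPM), was at 40.5, 36.4 and 37.5 in WT 1 to 3 and at 14.4, 12.4 and 13.6 in PARP2 KO 1 to 3, 2.83-fold higher in WT (adjusted p = 0.00201, edgeR quasi-likelihood test). The tissue label was checked against acinar genes: digestive enzyme genes took 30.2%, 31.5% and 24.6% of counts in WT 1 to 3 but 4.65%, 15.6% and 0.0382% in PARP2 KO 1 to 3. PARP2 KO 3 thus held almost no acinar RNA. For most of the called collagen genes the log2 fold change without it is also given below. Genes of the other lists are given only with it included. Fat cell markers summed to 398.2 to 889.5 CPM in WT and 5312 to 6558 CPM in PARP2 KO, and lymphocyte markers to 111 to 296 CPM against 979 to 1524 CPM. Of 6 mesothelial markers 1 was called lower, and of 7 Schwann cell markers 1 was called higher. The shares over all genes tested were 25.0% lower and 28.0% higher. In bulk tissue, fewer cells of a type and less RNA per cell cannot be told apart. Values are CPM with TMM scaling unless stated, and a gene was called at an edgeR adjusted p under 0.05 over 17652 genes tested.

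Among the collagen genes, more members were lower than higher in PARP2 KO. Of 44 members, 38 passed the filter on low counts, and 13 of these 38 (34.2%) were called lower and 5 (13.2%) higher in PARP2 KO. Over all genes tested, 25.0% were called lower, 28.0% higher and 53.0% in either direction, against 47.4% of the collagen genes. The CPM values of the 2 genotypes did not overlap for 21 of the 38 (55.3%), against 68.1% of all genes tested. The median log2 fold change was -0.34 over the 38 members and 0.02 over all genes tested. This balance depended on scaling: with library totals alone, which moved the median of all genes to 0.42, 10 members were called higher and 4 lower, so 71.4% of the collagen calls were higher where TMM gave 27.8%. Over all genes the same share was 77.6% with library totals and 52.8% with TMM. Of the 18 calls, 9 were kept under that scaling.

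**Figure D1:**
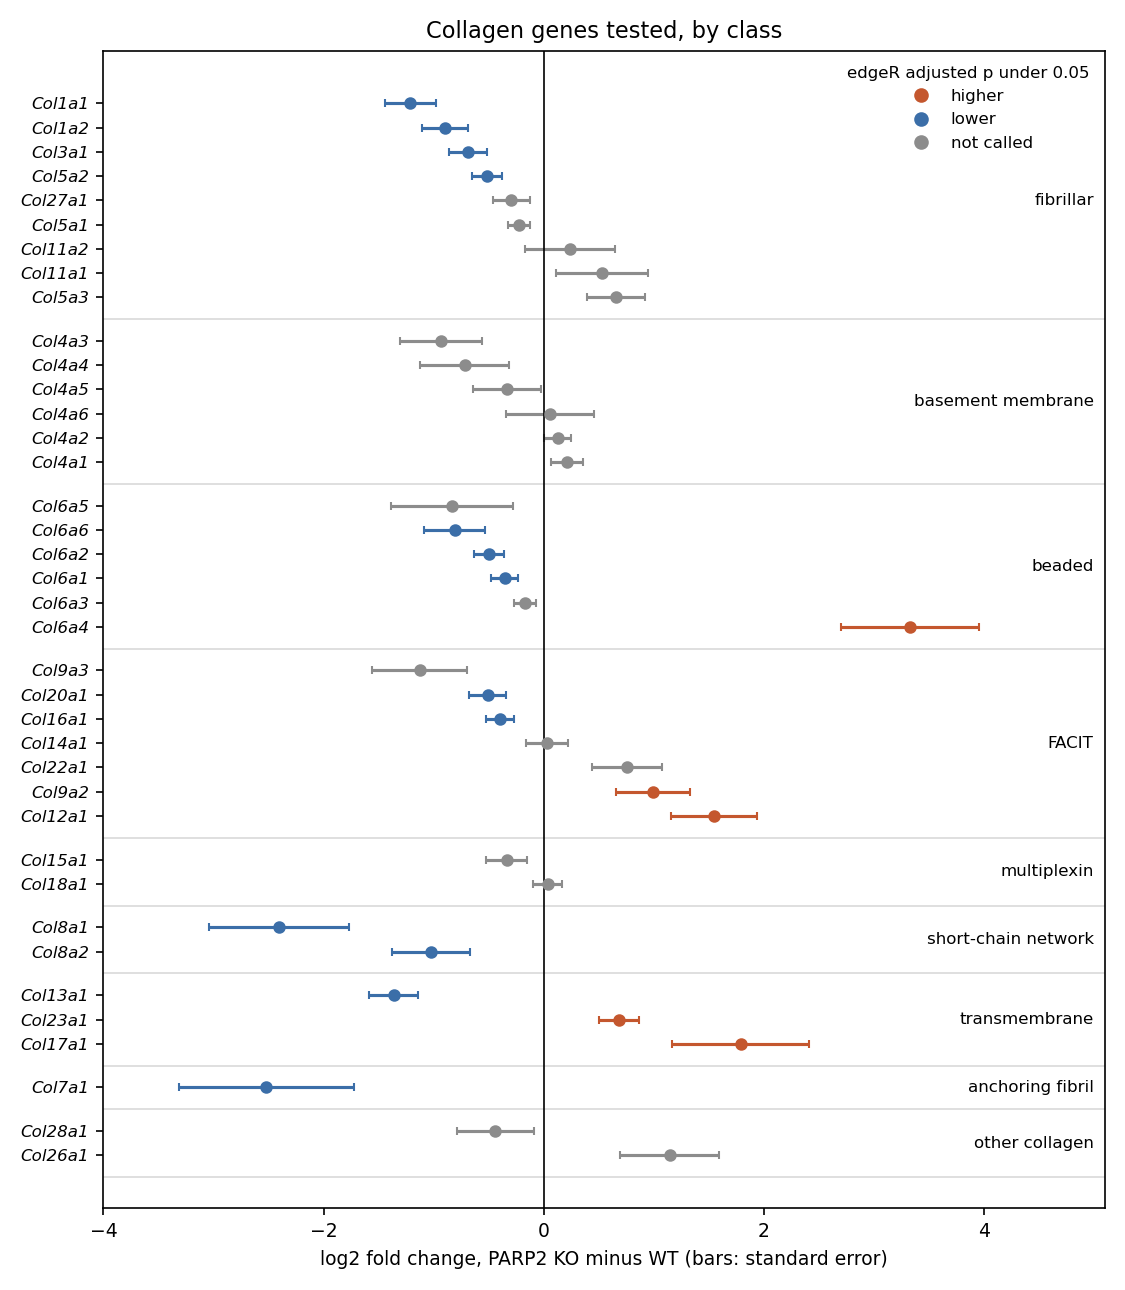
Log2 fold change of each tested collagen gene (PARP2 KO minus WT, horizontal axis) by class, with bars for the standard error and colour for the edgeR call at an adjusted p under 0.05. The 4 called fibrillar genes all lie left of 0, no basement membrane gene is called, and Col6a4 at 3.33 is the member farthest to the right.

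Because class shares of collagen counts do not depend on library scaling, they were compared in each library. Fibrillar genes supplied 63.3%, 58.9% and 56.9% of collagen counts in WT 1 to 3 and 49.0%, 51.9% and 45.1% in PARP2 KO 1 to 3 (59.7% ± 3.25 and 48.7% ± 3.39, SD, n = 3 each). Every PARP2 KO library was below every WT library, with or without PARP2 KO 3. Basement membrane genes supplied 14.2%, 14.2% and 15.3% in WT and 21.6%, 18.9% and 27.0% in PARP2 KO (14.6% ± 0.639 and 22.5% ± 4.16, SD, n = 3 each). Here the groups were also apart, in the other direction, and PARP2 KO 3 was the highest. FACIT genes held 4.86%, 4.52% and 6.58% in WT and 9.78%, 7.79% and 7.39% in PARP2 KO, without overlap. Beaded genes held 10.8%, 14.0% and 13.4% in WT and 13.8%, 14.3% and 13.6% in PARP2 KO, with overlapping groups. Collagen genes together took 0.504%, 0.465% and 0.495% of all counts in WT 1 to 3 and 0.477%, 0.458% and 0.473% in PARP2 KO 1 to 3. These ranges overlapped, and the 95% Wilson interval, which covers counting error only, was 0.502% to 0.507% in WT 1 and 0.456% to 0.461% in PARP2 KO 2. After TMM scaling the summed collagen level was 5136 to 6123 CPM in WT and 3897 to 4378 CPM in PARP2 KO. Shares are given without a test. Within a library they add up to the whole, so a lower fibrillar share by itself raises the shares of other classes. The basement membrane and FACIT rises are therefore not separate from the fibrillar fall. In summed CPM, basement membrane genes lay at 786.5 to 870.0 in WT and 826.0 to 1053.4 in PARP2 KO. FACIT genes lay at 253.8 to 338.0 and 287.9 to 392.3, so both classes overlapped between genotypes.

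**Figure D2:**
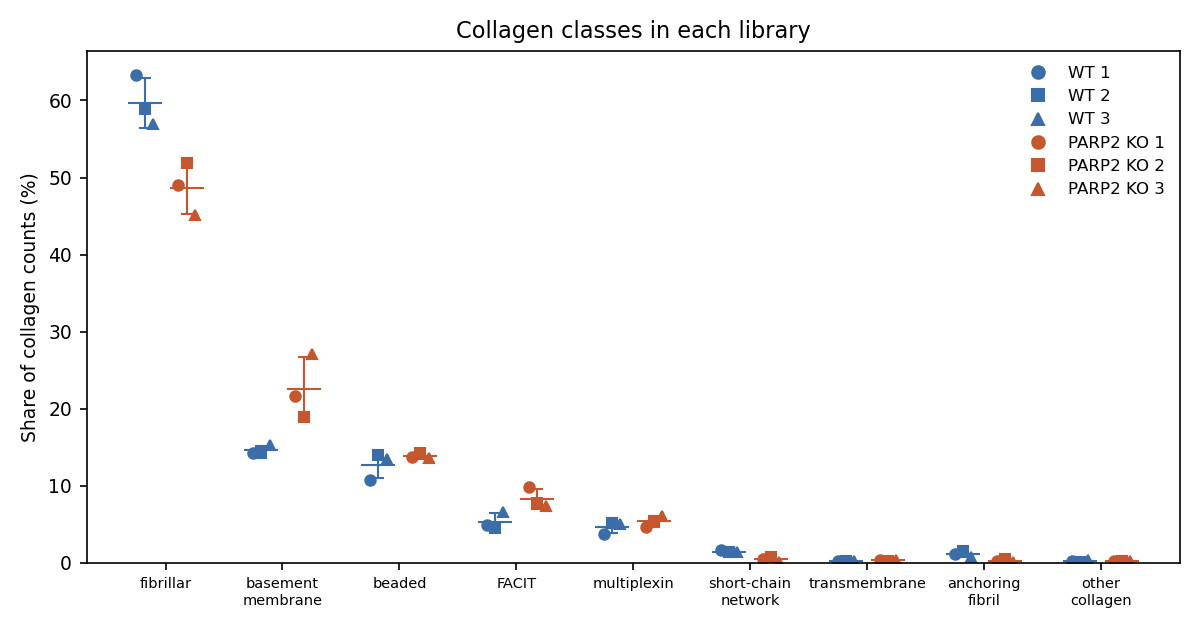
Share of all collagen counts (percent, vertical axis) taken by each collagen class in each of the 6 libraries, with horizontal lines for the mean and bars for the SD of 3 libraries. Fibrillar shares lie at 56.9% to 63.3% in WT and 45.1% to 51.9% in PARP2 KO, while basement membrane shares lie at 14.2% to 15.3% and 18.9% to 27.0%.

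The genes of type I and type III procollagen and Col5a2 fell. Of 9 fibrillar genes tested, 4 were called lower and none higher, and the median log2 fold change was -0.29. Over all genes tested, 25.0% were called lower and 28.0% higher. At an unadjusted p under 0.05, 1 fibrillar gene (Col5a3) was higher, and DESeq2 called 1 higher. Col1a1 (ENSMUSG00000001506, chr11:94936224-94953042, GRCm38) encodes the alpha1 chain of type I collagen, the chain that contributes more copies to each type I molecule. It was at 796, 677 and 519 CPM in WT 1 to 3 and at 291, 349.8 and 219 CPM in PARP2 KO 1 to 3. The groups did not overlap, and the level was 2.32-fold higher in WT (log2 fold change -1.21 with SE 0.231, edgeR adjusted p = 0.00716). Col1a2 (ENSMUSG00000029661, chr6:4504814-4541544), its partner chain, was at 937, 872 and 683 CPM in WT and at 479, 525 and 339 CPM in PARP2 KO (log2 fold change -0.89, SE 0.209, edgeR adjusted p = 0.0141). Col3a1 (ENSMUSG00000026043, chr1:45311538-45349706) encodes type III collagen, a homotrimer that is co-assembled with type I. It was at 1746, 1413 and 1346 CPM in WT and at 887, 1070.2 and 843 CPM in PARP2 KO (log2 fold change -0.69, SE 0.172, edgeR adjusted p = 0.0173). Col5a2 (ENSMUSG00000026042, chr1:45374321-45503282) encodes a chain of type V collagen, which nucleates type I fibrils. Its values were 200.2, 155 and 166 CPM in WT and 109, 138 and 118 CPM in PARP2 KO (log2 fold change -0.51, SE 0.137, edgeR adjusted p = 0.0212). In all 4 genes every PARP2 KO library lay below every WT library.

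The other 5 fibrillar genes tested had log2 fold changes from -0.29 (Col27a1) to 0.66 (Col5a3) and edgeR adjusted p from 0.079 (Col5a3) to 0.634 (Col11a2). Col5a1, the partner of Col5a2 in type V collagen, was at 129.9, 109.5 and 112 CPM in WT and at 94.8, 99.0 and 107.9 CPM in PARP2 KO, which did not pass (adjusted p = 0.104). Without PARP2 KO 3 the log2 fold changes were -1.03 for Col1a1, -0.71 for Col1a2, -0.60 for Col3a1 and -0.47 for Col5a2. The edgeR calls of Col1a1 and Col1a2 held whichever library was left out, whereas those of Col3a1 and Col5a2 were lost without WT 1 (adjusted p = 0.0599 and 0.0584), PARP2 KO 1 (0.0734 and 0.0717) or PARP2 KO 3 (0.0538 and 0.0553). With the acinar marker level as a covariate, Col1a1 remained called at -0.88 (adjusted p = 0.028) and Col1a2, at -0.57, did not (adjusted p = 0.0571). Nor did Col3a1 (-0.54, edgeR adjusted p = 0.0883) or Col5a2 (-0.44, 0.104). With library totals alone, Col1a1 and Col1a2 were called, but Col3a1 (-0.29, edgeR adjusted p = 0.137) and Col5a2 (-0.12, 0.463) were not. The sex covariate also removed the call of Col3a1 (-0.66, edgeR adjusted p = 0.0586). Fibroblast markers summed to 1801 to 2457 CPM in WT and 1599.6 to 2429.5 CPM in PARP2 KO, with 1 of 10 called higher (Thy1), 2 lower (Fbln2 and Pi16) and none at 0. Myofibroblast markers summed to 249 to 436 CPM in WT and 735 to 974 CPM in PARP2 KO, with 3 of 6 tested called higher and 1 lower. These marker calls stand beside 25.0% lower and 28.0% higher over all genes tested. The part of either population in the fibrillar result was not tested.

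**Figure D3:**
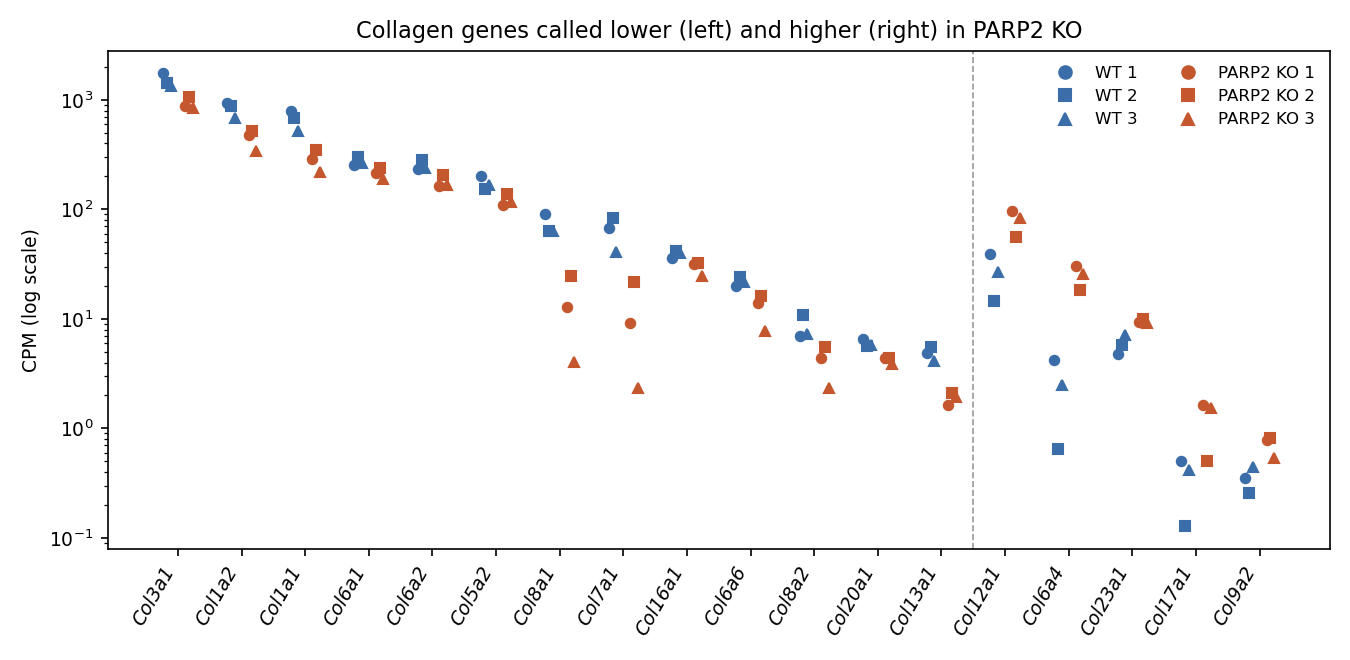
CPM on a log axis of the 18 called collagen genes in each library (circles, squares and triangles for replicates 1, 2 and 3; blue for WT, orange for PARP2 KO), called lower left of the dashed line and higher to its right. PARP2 KO 3 has the lowest value for Col8a1 (4.01 CPM) and Col7a1 (2.34 CPM), and Col17a1 is the called gene whose genotypes overlap.

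For chains that share a molecule or fibril, the ratio lay apart between genotypes in 5 of 6 pairs, in a design too small to reach 0.05. The CPM of single genes lay apart for 68.1% of all genes tested, and the share for ratios of other gene pairs was not computed. Ratios of counts per kb of transcript are independent of library scaling and were compared for 6 pairs. The Col1a1 to Col1a2 ratio was 0.766, 0.700 and 0.684 in WT 1 to 3 and 0.547, 0.601 and 0.582 in PARP2 KO 1 to 3, so every PARP2 KO library was lower (difference of log2 means -0.31). The Col3a1 to Col1a1 ratio was 2.34, 2.22 and 2.77 in WT and 3.25, 3.26 and 4.11 in PARP2 KO, so every PARP2 KO library was higher (difference 0.53). Col5a1 to Col5a2 averaged 0.533 ± 0.0224 in WT and 0.657 ± 0.0818 in PARP2 KO, and Col6a1 to Col6a2 averaged 1.04 ± 0.0237 and 1.16 ± 0.0910 (SD, n = 3 each). The type IV pair Col4a1 to Col4a2 moved least, from 1.59 ± 0.0546 to 1.68 ± 0.0507 (SD, n = 3 each, difference 0.08). These 5 ratios did not overlap between genotypes and each had p = 0.10 in a two-sided exact permutation test, which cannot give less with 3 libraries against 3 (0.12 after Benjamini-Hochberg adjustment over the 6 pairs). The overlapping Col6a3 to Col6a1 ratio gave an exact p = 0.30. The absolute ratios depend on the transcript length chosen: over the union of all exons the Col1a1 to Col1a2 ratio averaged 1.505 in WT and 1.21 in PARP2 KO.

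**Figure D4:**
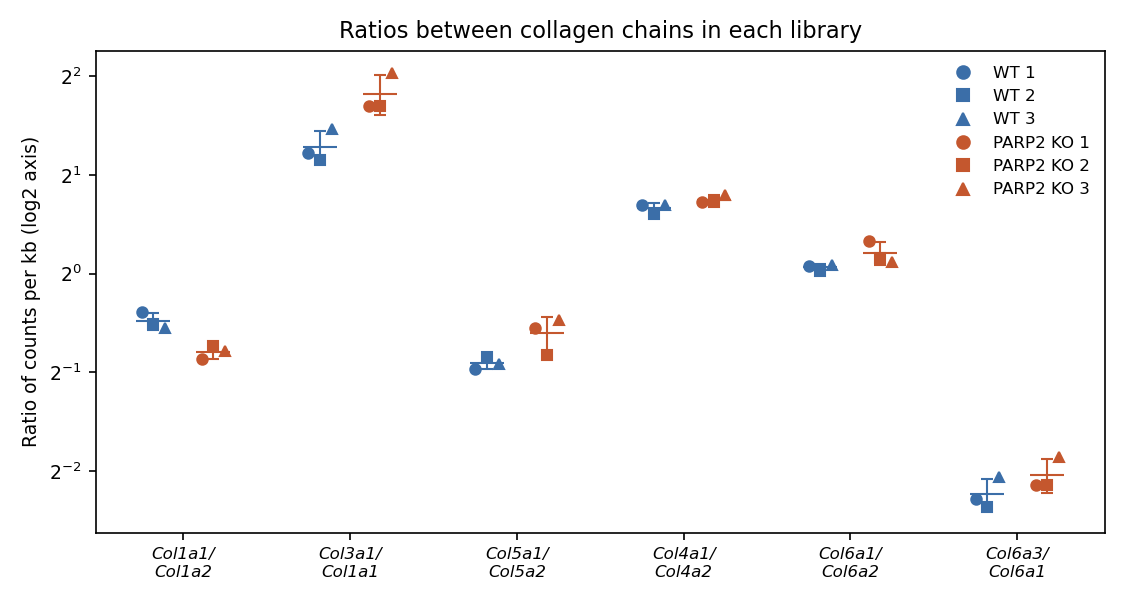
Ratio of counts per kb between 2 collagen chains (log2 axis) in each library, for 6 pairs, with the mean and SD of 3 libraries. Col1a1 to Col1a2 lies at 0.684 to 0.766 in WT and 0.547 to 0.601 in PARP2 KO, and Col6a3 to Col6a1 is the pair whose genotypes overlap.

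None of the 6 type IV genes was called by edgeR, beside 53.0% of all genes tested, and their median log2 fold change was -0.14. Col4a1 (ENSMUSG00000031502, chr8:11198423-11312826) and Col4a2 (ENSMUSG00000031503, chr8:11312805-11449287) encode the chains of the network found in all basement membranes. Col4a1 was at 524, 455 and 469 CPM in WT and at 522, 497 and 663 CPM in PARP2 KO (log2 fold change 0.22, SE 0.146, edgeR adjusted p = 0.243). Col4a2 was at 316, 291 and 282 CPM in WT and at 307.5, 293 and 371.5 CPM in PARP2 KO (log2 fold change 0.13, SE 0.122, edgeR adjusted p = 0.394). In both genes the groups overlapped and PARP2 KO 3 was the highest library. Without PARP2 KO 3 the log2 fold changes were 0.09 for Col4a1 and 0.03 for Col4a2. Col4a5, which encodes a chain of more restricted membranes, was at 17.7, 30.1 and 21.4 CPM in WT and at 21.7, 21.8 and 11.5 CPM in PARP2 KO (adjusted p = 0.387). The other 3, Col4a3, Col4a4 and Col4a6, lay between 1.39 and 9.20 CPM in all libraries. At an unadjusted p under 0.05, 1 type IV gene (Col4a3) was lower and none higher, and DESeq2 called 1 lower and none higher. With library totals alone, Col4a1 (0.63, adjusted p = 0.0277) and Col4a2 (0.54, adjusted p = 0.0289) were called higher.

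Of 13 other basement membrane genes, partners of type IV collagen, 6 were called higher and 2 lower, with a median log2 fold change of 0.42. Over all genes tested 53.0% were called, so a count of 8 in 13 is near the background. Pxdn, the peroxidase that forms the sulfilimine crosslinks of type IV collagen, rose from 37.9, 42.2 and 49.0 CPM to 144, 111 and 183 CPM (log2 fold change 1.77, edgeR adjusted p = 0.00233). The laminin chain gene Lama4, typical of vessel walls, rose from 66.6, 70.5 and 86.7 CPM to 148, 139.7 and 161 CPM (adjusted p = 0.00259), and Nid1, a linker of laminin to type IV collagen, rose by 0.65 (adjusted p = 0.00551). Lama5, the laminin chain gene typical of epithelial basement membranes, fell from 152, 176 and 117 CPM to 65.1, 74.0 and 47.2 CPM (-1.26, adjusted p = 0.00548). Alongside, endothelial markers summed to 329 to 373 CPM in WT and 810 to 929.9 CPM in PARP2 KO, with 7 of 8 called higher, and 4 of 8 pericyte and smooth muscle markers were called higher. The part of vessel cells in these values was not tested.

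The beaded collagen genes split in direction: 3 of 6 were called lower and 1 higher, beside 25.0% lower and 28.0% higher over all genes tested. Col6a1 (ENSMUSG00000001119, chr10:76708792-76726168) and Col6a2 (ENSMUSG00000020241, chr10:76595762-76623630) encode the 2 short chains of the type VI molecule. Col6a1 was at 256, 300.1 and 264 CPM in WT and at 213, 239.6 and 189 CPM in PARP2 KO (log2 fold change -0.35, SE 0.122, edgeR adjusted p = 0.049). Col6a2 was at 234, 284 and 239 CPM in WT and at 163, 207 and 167 CPM in PARP2 KO (-0.50, SE 0.134, edgeR adjusted p = 0.0225). Both were lower in every PARP2 KO library. Col6a3, the long chain, was at 129, 143 and 156 CPM in WT and at 119, 134 and 129 CPM in PARP2 KO and did not pass (-0.17, adjusted p = 0.19). Col6a4, Col6a5 and Col6a6 encode alternative long chains and lie next to each other on chromosome 9.

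Col6a4 (ENSMUSG00000032572, chr9:105989454-106096783) was the collagen gene with the largest increase among the 38 tested. It was at 4.23, 0.645 and 2.51 CPM in WT (108, 15 and 73 counts) and at 30.5, 18.2 and 25.9 CPM in PARP2 KO (1129, 578 and 1009 counts). The level was 10.1-fold higher in PARP2 KO with no overlap (log2 fold change 3.33 with SE 0.630, edgeR adjusted p = 0.00807). This increase was as large without PARP2 KO 3 (3.32, adjusted p = 0.0157), held whichever library was left out and under all 10 alternatives, and was 3.17 with the acinar level as a covariate. Of its exon bases, 1.90% and 1.49% overlap a pair of transcripts annotated on the opposite strand. Its neighbour Col6a6 (chr9:105687809-105828160) was at 19.9, 24.3 and 21.7 CPM in WT and at 13.8, 16.1 and 7.68 CPM in PARP2 KO (-0.81, SE 0.273, edgeR adjusted p = 0.0465). Col6a5, between them, varied from 6.85 to 34.5 CPM among the WT libraries and lay at 9.66 to 12.7 CPM in PARP2 KO (-0.83, adjusted p = 0.242). The call of Col6a1 was lost without WT 1, WT 2, WT 3, PARP2 KO 1 or PARP2 KO 3 (adjusted p from 0.0768 to 0.16), that of Col6a2 without WT 2, PARP2 KO 1 or PARP2 KO 3 (0.0714 to 0.0994) and that of Col6a6 when any WT library or PARP2 KO 1 was left out (0.0794 to 0.122). Without PARP2 KO 3 the log2 fold changes were -0.26 for Col6a1, -0.44 for Col6a2 and -0.54 for Col6a6.

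Of 7 FACIT genes tested, 2 were called higher and 2 lower, close to the 28.0% and 25.0% of all genes, and the median log2 fold change was 0.03. Col12a1 (ENSMUSG00000032332, chr9:79598991-79718831) encodes a large FACIT chain that binds type I fibrils and is known from tissues under mechanical load. It was at 39.3, 14.7 and 26.9 CPM in WT and at 96.8, 56.2 and 83.6 CPM in PARP2 KO. Every PARP2 KO library was above every WT library, 2.93-fold on average (log2 fold change 1.55, SE 0.391, edgeR adjusted p = 0.0195). Col14a1 (chr15:55307750-55520803), the closest relative of Col12a1 and the most abundant FACIT transcript, was at 211, 184 and 259 CPM in WT and at 254, 242 and 171 CPM in PARP2 KO (0.03, SE 0.195, adjusted p = 0.904). The groups of Col14a1 overlapped, and the difference between the changes of these related genes was not tested. Col16a1 (chr4:130047840-130099283) was at 36.2, 41.4 and 40.0 CPM in WT and at 32.1, 32.5 and 24.9 CPM in PARP2 KO (-0.40, SE 0.129, edgeR adjusted p = 0.0407). Col20a1 (chr2:180986535-181018363) was at 6.54, 5.67 and 5.79 CPM in WT and at 4.43, 4.35 and 3.85 CPM in PARP2 KO (-0.51, SE 0.167, edgeR adjusted p = 0.0417), and 1.54% of its exon bases are shared with a transcript on the same strand. In both, the PARP2 KO libraries were below all WT libraries. Col9a2 (chr4:121039385-121055322), a type IX chain best known from cartilage, rested on few counts: 9, 6 and 13 in WT and 29, 26 and 21 in PARP2 KO (0.99, SE 0.338, edgeR adjusted p = 0.0468). Col9a3, another type IX chain with more counts (384 in WT and 239 in PARP2 KO), went the other way without a call (-1.13, SE 0.432, edgeR adjusted p = 0.067). At an unadjusted p under 0.05, 2 FACIT genes were higher and 3 lower, Col9a3 among the lower.

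Cartilage markers summed to 49.0 to 66.9 CPM in WT and 4.24 to 18.7 CPM in PARP2 KO. Of 5 tested, 4 were called lower, beside 25.0% of all genes tested. Acan was at 0 in all PARP2 KO libraries and had 113, 17 and 11 counts in WT 1 to 3, so most of its WT counts came from WT 1. Most of the WT sums came from Sox9 (37.4, 61.5 and 42.7 CPM), which pancreatic ducts also express. Without PARP2 KO 3 the log2 fold change was 1.52 for Col12a1 (adjusted p = 0.0362) and 1.18 for Col9a2 (0.0456), and Col16a1 (-0.27, 0.096) and Col20a1 (-0.43, 0.11) lost their calls. Col12a1 also lost its call without WT 3 (1.54, 0.063) or PARP2 KO 1 (1.40, 0.0584). Col20a1 lost its call whichever library was left out (adjusted p from 0.0612 to 0.122) and Col9a2 when any library but PARP2 KO 3 was (0.0589 to 0.141). Col16a1 was also lost when any WT library or PARP2 KO 1 was left out (0.0588 to 0.115).

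Outside these classes, 4 of the 10 genes tested were called lower, among them Col7a1 and both type VIII genes, and 2 were called higher. The shares over all genes tested were 25.0% lower and 28.0% higher. Col7a1 (ENSMUSG00000025650, chr9:108953586-108984875) encodes the collagen of anchoring fibrils, which fasten epithelial basement membrane to the tissue beneath. It was at 67.8, 82.7 and 40.7 CPM in WT and at 9.19, 21.9 and 2.34 CPM in PARP2 KO, 5.72-fold higher in WT on average (log2 fold change -2.52, SE 0.791, edgeR adjusted p = 0.0403). Col8a1 (ENSMUSG00000068196, chr16:57624258-57754737) encodes a chain of type VIII collagen, a short-chain network collagen of vessel walls and the cornea. It was at 91.2, 63.6 and 63.6 CPM in WT and at 12.8, 24.5 and 4.01 CPM in PARP2 KO, 5.28-fold higher in WT (-2.40, SE 0.637, edgeR adjusted p = 0.0238). Col8a2 (chr4:126286793-126314330), its partner, was at 6.97, 10.8 and 7.34 CPM in WT and at 4.43, 5.52 and 2.36 CPM in PARP2 KO (-1.03, SE 0.353, edgeR adjusted p = 0.0485). In all 3 genes the groups did not overlap and PARP2 KO 3 was the lowest library. Without PARP2 KO 3 the decreases were smaller, -2.02 for Col7a1 (adjusted p = 0.0245), -1.94 for Col8a1 (0.0116) and -0.74 for Col8a2 (0.0792). The calls of Col7a1 and Col8a1 held with the acinar level as a covariate (-1.37 and -1.47). Both calls were lost with sex as a covariate (edgeR adjusted p = 0.106 and 0.0592) and with no filter on low counts (0.121 and 0.0763). That of Col7a1 was also lost with library totals alone (0.0508). Both were lost when any WT library or PARP2 KO 1 was left out (0.0563 to 0.12), as was the call of Col8a2 (0.0717 to 0.14).

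The transmembrane collagens, which span the membrane of the cell that makes them, were called in both directions. Col13a1 (ENSMUSG00000058806, chr10:61838236-61979108), a cell adhesion collagen, was at 4.93, 5.59 and 4.13 CPM in WT and at 1.62, 2.11 and 1.95 CPM in PARP2 KO. No libraries overlapped, and WT was 2.58-fold higher (log2 fold change -1.36, SE 0.220). The edgeR adjusted p of 0.00457 was the smallest among the 38 collagen genes tested. The decrease was -1.37 without PARP2 KO 3 and -1.33 with the acinar level as a covariate, and the call held whichever library was left out. Col23a1 (chr11:51289920-51583918) was at 4.81, 5.80 and 7.13 CPM in WT and at 9.38, 9.97 and 9.23 CPM in PARP2 KO (0.69, SE 0.183, edgeR adjusted p = 0.0213). Col17a1 (chr19:47646344-47692094), the hemidesmosome collagen, was at 0.509, 0.129 and 0.413 CPM in WT and at 1.65, 0.505 and 1.54 CPM in PARP2 KO (1.79, SE 0.621, edgeR adjusted p = 0.0493), and its groups overlapped because PARP2 KO 2 fell within the WT range. The Col23a1 call was lost without WT 1, WT 2, PARP2 KO 1 or PARP2 KO 2 (0.0545 to 0.07), and that of Col17a1 when any library but PARP2 KO 2 was left out (0.0726 to 0.14). The multiplexins Col15a1 and Col18a1, basement membrane collagens whose ends can be released as small fragments, were not called (-0.34 and 0.04).

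The other 6 members had too few counts for the fit. Col10a1, the collagen of cartilage being turned into bone, had 52, 36 and 7 counts in WT and 2, 5 and 0 in PARP2 KO. That is 18.8 times more in WT at equal library size, with a 95% counting interval from 8.76 to 47.9 that covers counting error only, and WT 3 was close to the PARP2 KO libraries. An exon of Nt5dc1 on the opposite strand covers 18 of its exon bases. Summed over the libraries of WT and of PARP2 KO, Col19a1 (13 and 54 counts), Col24a1 (14 and 43) and Col2a1 (3 and 15) had more counts in PARP2 KO. Their counting intervals exclude equal levels, and those of Col25a1 (7 and 19) and Col9a1 (4 and 1) include no difference. These intervals also cover counting error only and leave out variation between mice, so a genotype difference was not tested. The CPM values of Col24a1 overlapped between genotypes.

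Among the 13 members called lower, 9 followed the digestive enzyme share within the PARP2 KO group, highest in PARP2 KO 2 and lowest in PARP2 KO 3: Col1a1, Col1a2, Col3a1, Col6a1, Col6a6, Col16a1, Col8a1, Col8a2 and Col7a1. The same order held for 52.6% of all genes called lower. It held for 25.8% of all genes tested. With the acinar level as a covariate, 5 of the 18 calls remained, those of Col13a1, Col1a1, Col6a4, Col7a1 and Col8a1. With sex as a covariate, 7 remained, those of Col12a1, Col13a1, Col1a1, Col1a2, Col23a1, Col5a2 and Col6a4. Sex read from the counts was male in WT 1, WT 2 and PARP2 KO 1. It was female in WT 3, PARP2 KO 2 and PARP2 KO 3, so sex was not balanced between genotypes.

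Per kb of transcript, the order of abundance changed below the top. Col3a1 was highest in both genotypes, at 269.9 ± 38.6 CPM per kb in WT and 168 ± 21.7 in PARP2 KO (SD, n = 3 each), apart from the next gene in both. In WT, Col1a2 (155 ± 24.7) and Col1a1 (112 ± 23.5) followed with overlapping ranges, then Col4a1 (72.9 ± 5.55), Col6a1 (66.6 ± 5.75) and Col6a2 (63.9 ± 6.97), whose neighbours also overlapped. In PARP2 KO, Col4a1 (84.7 ± 13.6) and Col1a2 (83.7 ± 18.1) came next with overlapping ranges, and Col1a1 (48.3 ± 11.1) overlapped with Col4a2 (50.3 ± 6.46) and Col6a2 (45.3 ± 6.10). Col6a4 moved from place 34 of 44 in WT to place 17 in PARP2 KO, and Col8a1 from place 11 to 20. With lengths from the union of exons, Col1a2 took place 3 in WT and place 6 in PARP2 KO, while Col3a1 stayed first.

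Of 19 genes for chain modification and folding, 6 were called lower and 2 higher and 11 were not called (median log2 fold change -0.26), beside 25.0% lower and 28.0% higher over all genes. P4hb, a subunit of prolyl 4-hydroxylase and a general disulfide isomerase of the secretory pathway, fell from 2289.7, 2488 and 1936 CPM to 513, 1047 and 361 CPM (log2 fold change -1.81, edgeR adjusted p = 0.0126). Ppib, a prolyl isomerase of the procollagen folding complex, fell by 1.48 (adjusted p = 0.00721) and P4ha2, a catalytic prolyl hydroxylase subunit, by 0.91 (0.00941). P3h4 had a log2 fold change of -0.92 (0.0119). Plod1, a lysyl hydroxylase, rose by 0.46 (0.00658). Of 10 genes for procollagen export and end trimming, 5 were lower and 2 higher (median -0.17). Among the lower were Sec24d, a coat protein of export vesicles, at -0.90 (edgeR adjusted p = 0.00448) and Pcolce, an enhancer of procollagen trimming, at -0.99 (0.0059). The 2 higher were Tll1 at 1.10 (0.00694) and Adamts14 at 0.77 (0.033). P4hb, Ppib and Sec24d also serve secreted proteins other than collagen. Acinar markers summed to 118320 to 168361 CPM in WT and to 17620, 67520 and 80.6 CPM in PARP2 KO 1 to 3. Of the 11 acinar markers, 0 were called in either direction, with a median log2 fold change of -2.35. The part of acinar cells in the decreases of P4hb, Ppib and Sec24d was not tested.

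The counts in the next lists stand beside 25.0% lower, 28.0% higher and 53.0% called in either direction over all genes tested. Of 5 crosslinking enzymes, 2 were called lower and none higher (median 0.07). Lox, which oxidises lysines to start fibril crosslinks, was at 60.4, 48.7 and 57.4 CPM in WT and at 25.0, 32.5 and 23.4 CPM in PARP2 KO (-1.04, SE 0.154, edgeR adjusted p = 0.00366), and Loxl1 was lower by a log2 fold change of -0.68 (0.0448). Among 12 fibril-associated genes, 2 were lower and 2 higher (median 0.11): the small proteoglycan gene Bgn (-0.72, adjusted p = 0.00515) and Thbs1 (-1.57, 0.0344) against Postn (0.78, 0.0206) and Thbs2 (0.50, 0.0483). Of 9 collagen receptor genes tested (median 0.08), Itga1 (0.92, 0.00333) and Itga2 (1.39, 0.00378), the alpha chains of collagen-binding integrins, and the inhibitory leukocyte receptor gene Lair1 (0.96, 0.00574) rose, while the uptake receptor gene Mrc2 (-1.18, 0.00546) and the kinase receptor gene Ddr1 (-1.42, 0.0095) fell. Of 6 collagen-degrading proteases (median -0.66), 4 fell, with Ctsk at -0.99 (0.0141), Mmp14 at -0.52 (0.0161) and Mmp13 at -1.88 (0.0185), and the gelatinase gene Mmp9 rose by 1.12 (0.00625).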

How the data were processed

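Poly(A) RNA of 6 pancreas samples was sequenced with a stranded kit, per the labels' protocols. The submitters' processing notes name FastQC 0.11.5, STAR 2.5.3a, DESeq2 1.28.1 and the builds GRCm38 and mm10. For the counting program, its strand setting and the annotation release, the answer is not given in the sources used here. The authors deposited raw counts per gene, and a second table of log2 values that equals a transform of these counts to within 5.15e-14.

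Counts were tested in R 4.3.3 with the edgeR 4.0.16 quasi-likelihood F-test (TMM, filterByExpr, genotype as the only term) and Benjamini-Hochberg adjustment over 17652 genes, at 0.05. The script was tested on simulated data. That simulation changed far fewer genes than were called here, so it does not test the scaling under a change as broad as this. CPM use TMM-scaled library sizes of the filtered genes. Levels per kb use the transcript with the longest coding sequence (GENCODE vM21, GRCm38), and the union of exons is an alternative chosen after seeing the data. Promoters come from RefSeq (GRCm38.p6).

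Alternatives were DESeq2 1.42.0, limma 3.58.1, other scalings and filters, an acinar or sex covariate (sex read from Y-linked genes and Xist) and leaving out each library. Library pairs within a genotype differed by 29.1 to 461 times sampling noise (chi-square per degree of freedom), so none was a duplicate. Each library came from its own animal, per the series' design text. The members and lists were chosen with earlier results of these data known. Every collagen gene called and up to 3 per class with the highest level per kb are given by library. From the other lists some called genes are named, not always those with the smallest p.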

Additional observations from a re-analysis of the deposited data

How the results depend on the processing

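No paired analysis was possible because the labels give no replicate numbers that tie a WT to a PARP2 KO mouse. With 5 higher and 13 lower collagen genes in the analysis as reported, library totals as the only scaling gave 10 and 4, no filter on low counts 4 and 7, the acinar covariate 1 and 4, and the sex covariate 3 and 4. TMM without digestive enzyme genes, a minimum of 1 CPM and limma-voom each gave 3 higher. Fibrillar calls were 1 higher and 2 lower with library totals, 1 lower with the acinar covariate and 1 higher with the DESeq2 Wald test. Basement membrane calls were 2 higher with library totals and 1 lower with DESeq2. Beaded lower calls fell from 3 to 0 with library totals, the acinar or the sex covariate, and to 1 with no filter. FACIT higher calls fell from 2 to 1 with TMM without digestive enzyme genes, no filter, the CPM minimum, DESeq2, limma-voom or the sex covariate and to 0 with the acinar covariate, and lower calls from 2 to 0 with library totals, no filter and either covariate. Leaving out 1 library gave 1 to 4 higher and 3 to 14 lower collagen calls, 2 to 4 fibrillar lower, 0 to 3 beaded lower, and 0 to 2 FACIT calls in each direction. Signs turned for Col6a1 (0.041), Col4a5 (0.057) and Col6a3 (0.22) with library totals, for Col4a1 (-0.0065), Col4a2 (-0.046) and Col4a5 (0.13) with the acinar covariate, and for Col14a1 with TMM without digestive enzyme genes (-0.00186) and without WT 2 (-0.085), PARP2 KO 1 (-0.06) or PARP2 KO 2 (-0.04), and its highest value with 1 library left out was 0.20 (without PARP2 KO 3). Class shares and the log2 differences of the chain ratios kept their direction under every alternative run for them. Beyond the scalings, filters and left-out samples named, the cause was not tested. With 3 libraries a genotype, genes with few counts such as Col9a2 and Col17a1 rest on the least evidence.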
